A study of Homo sapiens with 36 samples.

Results

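The interferon-stimulated genes are genes whose transcription is raised by interferon, and 41 of them were followed here in 4 cell lines from human non-small cell lung cancers. They were chosen by name, and all 41 were found among the 66366 genes of the files. A member was tested in a line where its mean FPKM (fragments mapped to a transcript, scaled to its length and to the size of the library) over the 9 libraries of that line was at least 0.5. By that rule 41 members were tested in A549, 39 in H1975, 38 in H820 and 25 in H3255, and 25 passed in all 4 lines. H3255 carries EGFR L858R, H1975 carries EGFR L858R with T790M, H820 has T790M beside a deletion in exon 19 of EGFR. In A549 EGFR is wild type. Each line received, for 24 h, MinE07 (an RNA aptamer against EGFR, that is, a folded RNA that binds the receptor), C36 in an extended form (a control aptamer) or vehicle (DPBS with magnesium). Aptamers were given at 3 µM, and all groups were in medium with 1% serum, based on DMEM in A549 and on RPMI elsewhere. There were 3 libraries in each of the 12 groups, from biologically independent experiments per the series record. Each genotype is represented by 1 cell line, so genotype, line and, for A549, medium cannot be told apart.

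Type I interferons (alpha and beta) and type III interferons (lambda) bind different cell surface receptors that signal through the kinases JAK1 and TYK2. The kinases phosphorylate STAT proteins, STAT2 among them, and the complex ISGF3, which holds STAT2 and IRF9, binds a promoter element whose core is GAAA, any 2 bases and GAAA again, the interferon-stimulated response element. The products of the induced genes bind viral RNA, degrade RNA, restrict virus entry and budding, or feed back on the pathway, and in epithelial cells foreign double-stranded RNA sensed by RIG-I, MDA5 or TLR3 is a known trigger of interferon production.

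Depth is known only in relative terms, because the files hold no counts: the shallowest library stood at 0.59 and the deepest at 1.385 times the median, and 13236 to 14267 genes had over 1 FPKM in a library. All 5 epithelial markers (EPCAM, KRT8, KRT18, KRT19, CDH1) were above 1 FPKM in every line. Of the lung markers, NKX2-1, NAPSA and SFTPB were above 1 FPKM in H3255, NKX2-1 alone in H1975 and H820, and none in A549. Of 5 blood cell markers only CD68 exceeded 1 FPKM, and the 3 plasmacytoid dendritic cell markers (a cell type that makes much interferon) summed to at most 0.0928 FPKM in any library. The 3 endothelial markers summed to at most 0.814 FPKM in any library. Of the 3 fibroblast markers (COL1A1, COL1A2, PDGFRB), all had means above 1 FPKM in H1975, COL1A1 alone in H3255, and none in H820 or A549. In H1975 these summed to 16.1 to 17.1 FPKM with MinE07, to at most 12.8 with vehicle and to at most 13.5 with C36. The part of this in the results was not tested. Fewer cells of a type and less RNA per cell cannot be told apart in such bulk samples.

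The promoters of several members are shown because results here turn on these genes and because they differ in the response element. Sequences are the 160 bases before a transcription start in RefSeq (GRCh38.p14), written 5′ to 3′ on the gene's strand in lower case, with matches to that core (GAAA, any 2 bases, GAAA) on either strand in capitals. They lie at chr1:1013337-1013496 (ISG15, plus strand), chr1:27672193-27672352 (IFI6, minus), chr10:89332369-89332528 (IFIT3, plus), chr2:6877617-6877776 (RSAD2, plus), chr12:56360108-56360267 (STAT2, minus), chr14:24161105-24161264 (IRF9, plus) and chr4:88378692-88378851 (HERC6, plus). In ISG15 the capitals cover 2 matches that overlap. ISG15, IFI6 and IFIT3 rose with C36 in H3255, and RSAD2 had the second largest called rise with C36 in A549. With MinE07 against vehicle in H3255, STAT2, HERC6, IFI6 and IFIT3 rose and IRF9 fell.
ISG15: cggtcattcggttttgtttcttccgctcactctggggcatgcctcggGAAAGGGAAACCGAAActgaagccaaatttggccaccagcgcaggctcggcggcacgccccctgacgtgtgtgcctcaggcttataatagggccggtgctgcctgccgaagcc
IFI6: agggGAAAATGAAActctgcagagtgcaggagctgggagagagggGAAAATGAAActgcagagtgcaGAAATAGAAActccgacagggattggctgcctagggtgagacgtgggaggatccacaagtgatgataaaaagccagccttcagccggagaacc
IFIT3: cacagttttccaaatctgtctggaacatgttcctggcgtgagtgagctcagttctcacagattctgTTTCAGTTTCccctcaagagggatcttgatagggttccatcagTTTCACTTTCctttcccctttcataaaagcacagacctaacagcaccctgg
RSAD2: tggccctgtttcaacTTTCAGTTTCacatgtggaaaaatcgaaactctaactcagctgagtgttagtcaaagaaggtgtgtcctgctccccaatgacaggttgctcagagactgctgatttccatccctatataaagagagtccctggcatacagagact
STAT2: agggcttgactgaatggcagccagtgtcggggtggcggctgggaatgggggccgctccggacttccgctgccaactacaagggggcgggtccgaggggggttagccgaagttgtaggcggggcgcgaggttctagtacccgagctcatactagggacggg
IRF9: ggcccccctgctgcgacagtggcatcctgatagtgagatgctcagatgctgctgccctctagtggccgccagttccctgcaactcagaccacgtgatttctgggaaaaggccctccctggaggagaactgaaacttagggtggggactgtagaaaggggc
HERC6: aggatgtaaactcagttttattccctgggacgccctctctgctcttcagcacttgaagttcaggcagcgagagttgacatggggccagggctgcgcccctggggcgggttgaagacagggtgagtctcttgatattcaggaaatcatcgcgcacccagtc
This core was searched on both strands in the 250 bases before each annotated start. A window was held for 33 of the 41 members, and 22 of these (66.7%) had at least 1 match, against 3.71% of 27305 genes with a window. Among the members shown, IFI6 had 3 matches, ISG15 and IFIT3 had 2 each, RSAD2 had 1, and STAT2, IRF9 and HERC6 had none. The other members with a window and no match were OAS1, IFI35, IRF1, CMPK2, XAF1, SAMD9L, DTX3L and UBE2L6. A match describes these letters and is not evidence of binding.

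By GENCODE 29 on GRCh38, 21 of the 41 members have another member within 100 kb. IFIT2, IFIT3, IFIT1 and IFIT5 lie together on chromosome 10 (IFIT2 from 89283694 to 89309276, IFIT5 from 89414586 to 89421001), and OAS1, OAS3 and OAS2 on chromosome 12 (OAS1 from 112906777, OAS2 to 113011723). Overlap with another protein-coding gene was found for 11 members, among them CMPK2 with RSAD2, PARP9 with DTX3L, and IFIT1, IFIT2 and IFIT3 with LIPA. Whether reads from such pairs were separated by strand is not given in the sources used here, so values of overlapping members carry that uncertainty.

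In vehicle-treated cells the members stood far higher in A549 than in the other lines. Of the 41, 38 were highest in A549, BST2 and IFITM3 were highest in H1975, and LY6E was highest in H820. H3255 was lowest for 32 members, H820 for 5 and H1975 for 4. For the 38 members highest in A549, the mean FPKM there exceeded that in the next line by a median of 6.99-fold, from 1.51-fold (SAMD9L) to 83.6-fold (TRIM22), and 25 of them exceeded it by over 5-fold. The TRIM22 value divides by 0.176 FPKM in H820, below the filter, and the next highest was IFI6 at 54.4-fold.

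ISG15, a ubiquitin-like protein that is conjugated to other proteins, gave 990, 814 and 871 FPKM in the vehicle libraries of A549. It gave 95.6, 76.1 and 81.5 FPKM in H1975, 59.5, 63.6 and 59.3 in H820, and 7.79, 7.57 and 6.54 in H3255. No library of any line overlapped those of another line. IFIT1, which binds viral RNA that lacks a self cap, gave 298, 233 and 246 FPKM in A549 and 10.9, 11.6 and 10.9 in H1975. The same gene gave 3.24, 3.56 and 2.97 FPKM in H820 and 0.0659, 0.136 and 0.149 in H3255. IFI6, a mitochondrial and ER-associated antiviral protein, was the highest member in A549 at 1579, 1329 and 1311 FPKM, against 26.5, 21.8 and 24.1 in H1975 and 25.8, 25.7 and 26.1 in H820. H1975 and H820 overlapped for IFI6, while every A549 library was far above them. MX1, a GTPase that blocks viral nucleocapsids, followed another order, with means of 135 ± 7.43 FPKM (SD, n = 3) in A549, 7.1 ± 0.221 in H820, 1.45 ± 0.224 in H1975 and 0.215 ± 0.0309 in H3255. OAS1, which makes oligoadenylates when it binds double-stranded RNA, gave 284 ± 3.46 FPKM (SD, n = 3) in A549, 9.11 ± 0.133 in H820, 5.66 ± 0.0902 in H1975 and 0.937 ± 0.213 in H3255.

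The ISGF3 subunits STAT2 and IRF9 spanned smaller ranges of FPKM than ISG15 or IFIT1. STAT2, a subunit of ISGF3, gave 27.3 ± 2.25 FPKM (SD, n = 3) in A549, 9.18 ± 0.157 in H3255, 5.65 ± 0.145 in H820 and 3.35 ± 0.478 in H1975, so that H3255 came next after A549. IRF9, the DNA-binding subunit, gave 19.1 ± 0.738 FPKM (SD, n = 3) in A549, and its libraries overlapped between H820 (3.64 ± 0.328), H1975 (3.46 ± 0.286) and H3255 (3.22 ± 0.136). IRF9 did not differ between those lines beyond the test's threshold (adjusted p from 0.129 to 0.531).

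Membrane proteins made the exceptions. LY6E, a surface protein that blocks membrane fusion by coronaviruses, gave 417, 444 and 450 FPKM in H820 and 185, 177 and 176 in H3255, above the 142, 116 and 118 in A549 and the 67.4, 59.0 and 60.1 in H1975. IFITM3, which blocks virus fusion in endosomes, gave 472, 448 and 445 FPKM in H1975, 188, 188 and 191 in H820, 202, 136 and 144 in A549 and 77.3, 72.9 and 73.3 in H3255. For IFITM3, the libraries of H820 and A549 overlapped, although the test called their difference. BST2, also called tetherin, which holds budding virions at the surface, gave 82.5, 77.5 and 75.5 FPKM in H1975, while in H3255 it was listed at 0.107, 0.143 and 0. IFITM1, a relative of IFITM3 at the cell surface, was no exception, being highest in A549 (mean 116 FPKM) and lowest in H3255. Within H3255 it was the third highest member at 15.0, 14.8 and 15.1 FPKM.

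**Figure D1:**
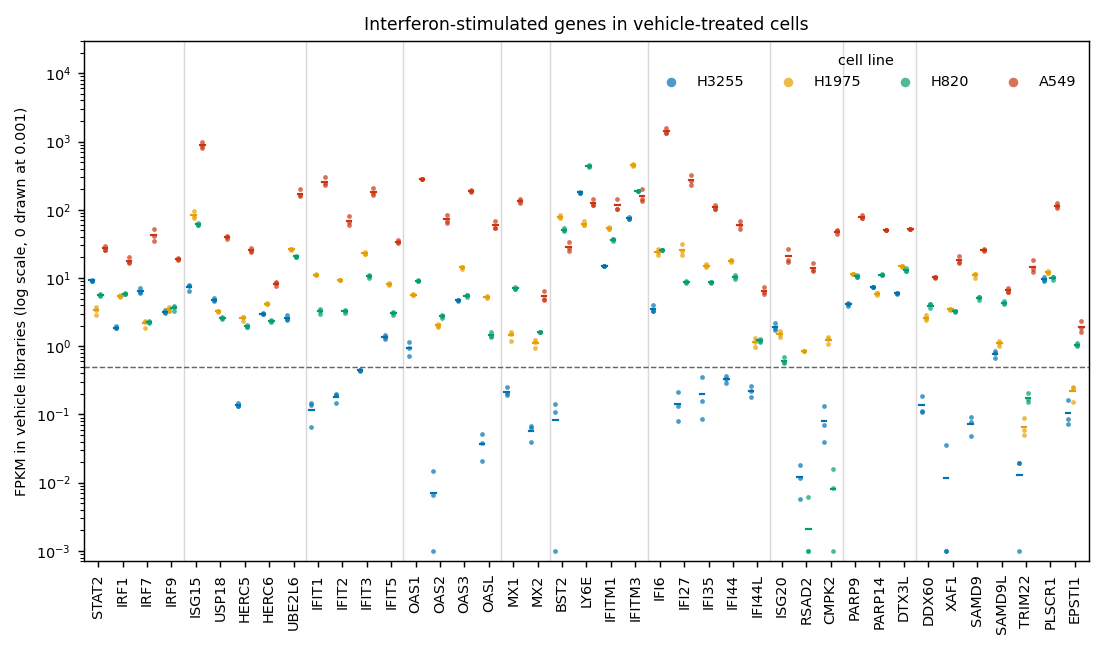
FPKM on a log axis of the 41 interferon-stimulated genes in vehicle-treated cells, ordered by role, with 3 points per line (1 per library), a bar at each mean and values of 0 drawn at 0.001; the dashed line marks 0.5 FPKM and grey lines separate role groups. The A549 mean lies above the others for 38 genes, and H3255 has many points under the dashed line.

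Line differences of this kind are common across all genes, and the counts have to be read against that. Between vehicle libraries, in 1 fit of all 36 libraries, 41 of 41 members differed at an adjusted p under 0.05 between A549 and H3255 (83.2% of 19207 genes tested), A549 and H1975 (81%) and A549 and H820 (81.4%). A member low in some lines entered this fit through the lines where it is high, as did the 16 members below the filter in H3255 and TRIM22, below it in every line but A549, so these counts are a description. Between H3255 and H1975 39 members differed (82.6% of all genes), 33 of them lower in H3255 (48.4%) and 6 higher (34.2%). Between H3255 and H820 38 differed (82.4%), 32 lower in H3255 (42.2%) and 6 higher (40.2%). Between H1975 and H820 34 differed (79.9%), 23 higher in H1975 (47.2%) and 11 lower (32.7%). Against A549 most members were lower in the other lines: 40 members were lower in H3255 than in A549 (41.5% of all genes were) and 1, LY6E, was higher (41.7%), 39 were lower in H1975 than in A549 (31.2%) and 38 were lower in H820 than in A549 (38.4%). The median log2 difference of the members was -4.84 for H3255 against A549, -2.80 for H1975 against A549 and -3.27 for H820 against A549, while the medians of all genes were 0.00, 0.16 and 0.03. Of the 123 pairs of lines that neighbour each other in the order of a member, 11 did not pass the test.

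Summed over the 41 members, the vehicle libraries held 5879, 4886 and 5049 FPKM in A549, 1059, 994 and 995 in H1975, 957, 1001 and 999 in H820, and 357, 346 and 346 in H3255. In H3255 LY6E and IFITM3 made up most of that sum. The sum in A549 was higher in all 3 C36 libraries (6023, 6277 and 6489 FPKM) than in all 3 vehicle libraries, whereas the MinE07 libraries (5862, 5977 and 5768) overlapped the vehicle ones through vehicle replicate 1.

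**Figure D2:**
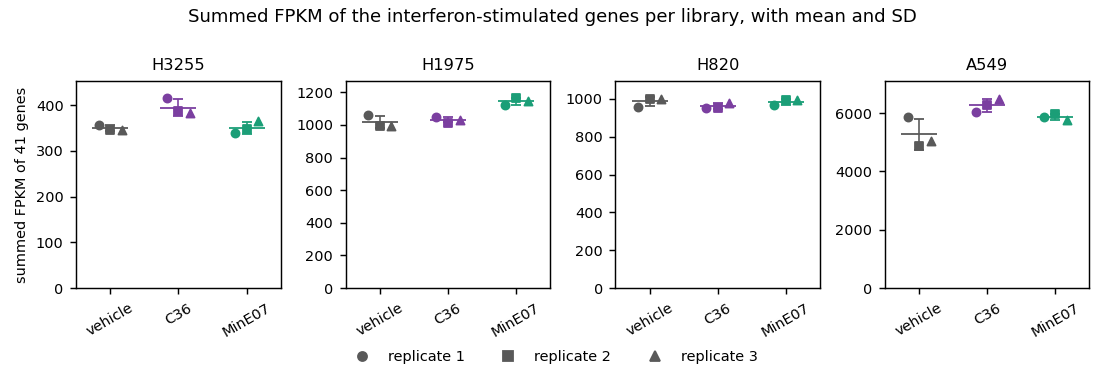
Summed FPKM of the 41 genes in each library by treatment, 1 panel per line with its own axis from 0; marker shapes are replicates, and horizontal bars with whiskers give the mean and SD of 3 libraries. In A549 vehicle replicate 1 (5879) stands above the other vehicle libraries, and in H3255 C36 replicate 1 (416) stands above the other C36 libraries.

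C36 was compared with vehicle to measure what an RNA aptamer not directed at EGFR did to these genes. In A549, 24 of 41 members were called, 23 higher and 1 lower with C36, where 4.89% of 15346 genes were called (3.01% higher, 1.88% lower). The median log2 change of the members was 0.22, against 0.01 for all genes. Every role group except the PARP and DTX3L genes had at least 1 member that rose: both MX GTPases, 3 of 4 OAS proteins, 2 of 4 IFIT proteins, 4 of 5 members of the ISG15 system, 2 of 4 membrane proteins, 2 of 5 IFI genes, 2 of 3 nucleotide-acting enzymes, 5 of 7 other members and 1 of 4 transcription factors.

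IFIT2, an RNA-binding relative of IFIT1, rose most. It gave 81.9, 59.8 and 65.1 FPKM with vehicle and 112, 126 and 139 with C36, so the groups did not overlap (1.83-fold between means). Its log2 change was 0.87 ± 0.11 (SE), adjusted p = 0.00846. RSAD2, or viperin, which makes a chain-terminating nucleotide, gave 16.7, 12.7 and 13.2 FPKM with vehicle and 21.3, 21.7 and 23.7 with C36. All C36 libraries were higher (log2 change 0.64 ± 0.090, adjusted p = 0.00887). TRIM22, an antiviral ubiquitin ligase, gave 18.5, 12.1 and 13.5 FPKM with vehicle and 20.9, 21.6 and 24.5 with C36, and its log2 change was 0.60 ± 0.14 (adjusted p = 0.044). MX2, a GTPase that restricts HIV-1, gave 6.49, 4.87 and 4.82 FPKM with vehicle and 7.69, 8.29 and 8.70 with C36 (log2 change 0.58 ± 0.098, adjusted p = 0.0156). In all 4 genes vehicle replicate 1 was the highest vehicle library and C36 replicate 1 the lowest C36 library, yet the groups stayed apart. The TRIM22 call was lost without vehicle replicates 2 or 3, any C36 library or any MinE07 library (adjusted p up to 0.15), that of MX2 without vehicle replicate 3 or C36 replicates 2 or 3, and that of RSAD2 without C36 replicate 3.

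ISG15 gave 990, 814 and 871 FPKM with vehicle and 1025, 1131 and 1182 with C36 in A549. Its groups were apart, and its log2 change of 0.32 ± 0.079 lay at the threshold (adjusted p = 0.05 as rounded, called). MX1 rose from 142, 127 and 135 FPKM to 157, 152 and 158 (log2 change 0.22 ± 0.045, adjusted p = 0.0298), and OAS1 from 287, 281 and 283 to 316, 322 and 322 (0.18 ± 0.036, adjusted p = 0.0268). Those are rises of 1.16-fold and 1.13-fold between means. IFIT1, at 298, 233 and 246 FPKM with vehicle and 290, 304 and 309 with C36, had overlapping groups and was not called (0.22 ± 0.079, adjusted p = 0.134). STAT2 had a log2 change of 0.22 ± 0.059 without passing the test (adjusted p = 0.0643), although its C36 libraries (30.7, 32.6 and 32.2 FPKM) were all above its vehicle libraries (29.9, 26.0 and 26.1). HERC6, a ligase related to HERC5 of the ISG15 system, was the 1 member that fell, from 8.83, 7.54 and 8.46 FPKM to 7.11, 6.93 and 6.62 (log2 change -0.25 ± 0.057, adjusted p = 0.0397), while HERC5 rose (0.31 ± 0.051, adjusted p = 0.0132).

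**Figure D3:**
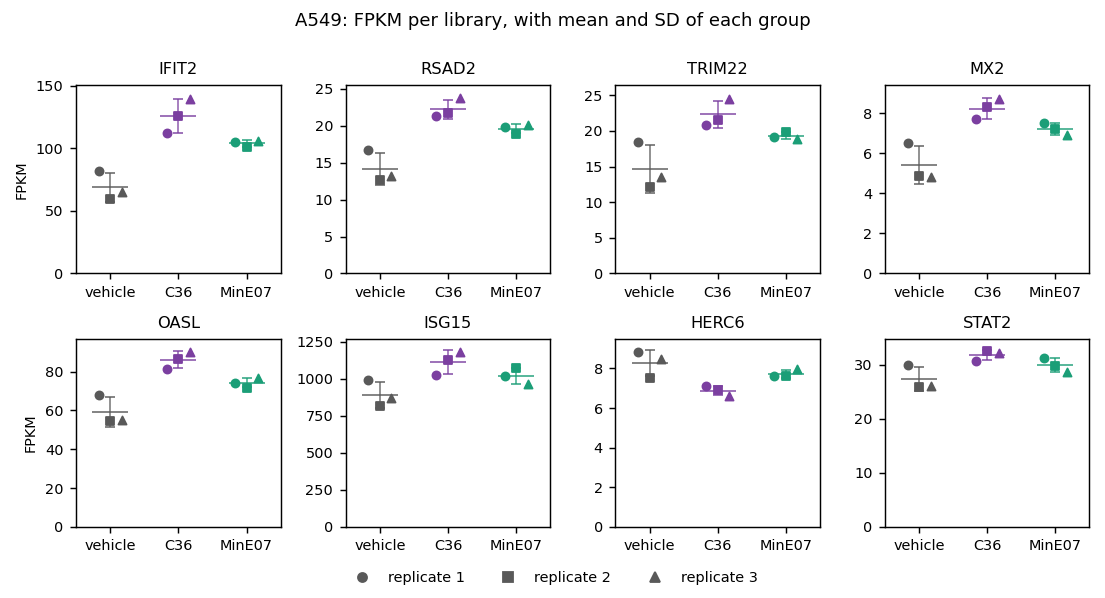
FPKM of 8 members in the 9 A549 libraries, each panel with its own axis from 0; marker shapes are replicates, and bars with whiskers give the mean and SD of 3 libraries. The C36 libraries lie above the vehicle libraries for all genes shown except HERC6, where they lie below.

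The A549 count depended on single libraries and on the filter. It was 10, 3 and 1 without C36 replicates 1, 2 and 3, 31, 9 and 5 without vehicle replicates 1, 2 and 3, 14 without MinE07 replicate 1, and 1 when no filter on low values was used. Vehicle replicate 1 was the highest vehicle library for 36 of 41 members (46.6% of all genes tested were highest there), and C36 replicate 3 was the highest C36 library for 31 of 41 (32.8%).

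Other genes of the pathway moved with C36 in A549, where 3.01% of all genes rose and 1.88% fell. Of 11 interferon ligand genes, 4 passed the filter and all 4 rose: IFNB1 (log2 change 1.34 ± 0.15, adjusted p = 0.00728) and the lambda genes IFNL1 (1.39 ± 0.17, adjusted p = 0.0087), IFNL2 (1.33 ± 0.17, adjusted p = 0.00895) and IFNL3 (1.38 ± 0.13, adjusted p = 0.00451). IFNB1 gave 5.02, 4.71 and 4.5 FPKM with vehicle and 9.71, 13.6 and 15.9 with C36 in A549, and in H3255 it was listed at 0 in all 3 vehicle libraries. IFNL2 and IFNL3 are near-identical copies, so reads may have been shared between them. With MinE07 against vehicle in A549 the 4 ligand genes had a median log2 change of 0.81 and none was called (0.163% of all genes were). Between MinE07 and C36 none was called either (0% of all genes). Whether the ligand calls depend on single libraries was not tested. Of 16 receptor and signalling genes 2 rose and none fell, and SOCS3 (0.40 ± 0.046), an inhibitor of JAK signalling, was among the 2. Of 12 tested RNA sensors and adaptors, DHX58 (also LGP2) rose by 0.44 ± 0.11. Of 12 antigen presentation genes 5 rose, NLRC5, HLA-E and HLA-F with the largest changes (0.48 ± 0.060, 0.46 ± 0.083 and 0.43 ± 0.098), and none fell. The blood cell markers also summed higher with C36 (92.8 to 96.9 FPKM) than with vehicle (66.5 to 80.8) in A549. That sum came from CD68, a lysosomal protein, with CD3E at 0 in all 6 libraries and the 4 markers other than CD68 summing to at most 0.259 FPKM.

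In H3255, C36 raised ISG15, IFI6, IFIT2 and IFIT3, the last 2 from vehicle means under 0.5 FPKM. Of 25 members tested, 4 rose and none fell (15 of 15251 genes rose, 0.0984%, 0.0787% fell and 0.177% were called in either direction). IFIT2, IFIT3, MX1 and IFI44 had vehicle means under 0.5 FPKM and passed the filter only through other groups, so the count over tested members supports nothing by itself. The median log2 change of the 25 was 0.25, against 0.02 for all genes.

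IFIT2 gave 0.149, 0.193 and 0.201 FPKM with vehicle and 1.53, 1.46 and 1.64 with C36, an 8.52-fold difference of means (log2 change 1.58 ± 0.076, adjusted p = 2.16e-05). IFIT3, a partner of IFIT1 in RNA binding, gave 0.455, 0.428 and 0.443 FPKM with vehicle and 1.55, 1.36 and 1.44 with C36 (log2 change 1.05 ± 0.062, adjusted p = 8.95e-05). In these genes the libraries of a group lay close together and far from the other group. ISG15 rose from 7.79, 7.57 and 6.54 FPKM to 22.8, 16.4 and 15.6 (log2 change 1.25 ± 0.14, adjusted p = 0.0308), and IFI6 from 3.27, 3.30 and 4.05 FPKM to 10.7, 7.63 and 6.75 (1.11 ± 0.15, adjusted p = 0.0495). C36 replicate 1 was the highest C36 library in both genes and in 21 of the 25 tested members (38.2% of all genes tested were highest there), and its relative depth was the lowest of the C36 libraries (0.762, against 1.15 and 1.109). The part of depth in these values was not tested.

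MX1 varied widely among the C36 libraries, with 0.250, 0.204 and 0.191 FPKM with vehicle and 2.13, 1.36 and 0.630 with C36 in H3255. The groups did not overlap, but the log2 change of 1.31 ± 0.26 did not pass (adjusted p = 0.0951). OAS1 gave 0.952, 0.716 and 1.14 FPKM with vehicle and 2.22, 1.71 and 1.42 with C36 (0.66 ± 0.14, adjusted p = 0.0951). IRF9 had a log2 change of 0.71 ± 0.11 (adjusted p = 0.0542), whereas STAT2 stayed at 9.23, 8.84 and 8.95 FPKM with C36 against 9.10, 9.09 and 9.37 with vehicle (-0.03 ± 0.037, adjusted p = 0.766). STAT2 groups overlapped. IFIH1, the MDA5 sensor, was the called gene among 10 RNA sensors and adaptors tested (0.40 ± 0.063, adjusted p = 0.0495), and no receptor, signalling or antigen presentation gene was called.

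The 16 members below the filter in H3255 were IFIT1, MX2, OAS2, OASL, IFI27, IFI35, IFI44L, RSAD2, DDX60, HERC5, BST2, CMPK2, XAF1, SAMD9, TRIM22 and EPSTI1. The highest mean among them was 0.364 FPKM (OASL) and the lowest among those tested 0.520. In 12 of the 16, all C36 libraries were above all vehicle libraries, and for genes below the filter no share over all genes is given (16.2% of the genes that passed it were so). OASL, an OAS relative that makes no oligoadenylates, gave 0.0378, 0.0211 and 0.0510 FPKM with vehicle, 1.06, 0.867 and 1.13 with C36, and 0.0349, 0.0369 and 0.0317 with MinE07. IFIT1 gave 0.917, 0.590 and 0.557 FPKM with C36 against 0.102, 0.120 and 0.170 with MinE07, close to its vehicle values given above. Both genes were thus high in the C36 libraries alone. At such levels no count of fragments is known, and the values are given without a test.

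The count of 4 in H3255 became 23 of 41 when all 36 libraries were fitted together, with 1 spread for all lines and all members tested. It became 2 without C36 replicate 2, without MinE07 replicates 1 or 3 (which enter through the spread), or without any 1 vehicle library, and the calls of ISG15 and IFI6 were each lost in 7 of the 9 fits that left out 1 library (all but those without C36 replicates 1 or 3, adjusted p up to 0.11 and 0.142).

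In H1975 and H820, C36 changed hardly any member past the threshold. IFIT3 was the called member in H1975 (0.173% of 16165 genes were called, 0.0247% higher and 0.148% lower), falling from 22.2, 22.7 and 23.7 FPKM to 19.4, 19.1 and 19.5 (log2 change -0.24 ± 0.036, adjusted p = 0.0494). OASL was the called member in H820 (2.24% of 15786 genes, 1.18% higher and 1.06% lower), falling from 1.40, 1.37 and 1.61 FPKM to 1.12, 0.918 and 0.991 (-0.37 ± 0.081, adjusted p = 0.05 as rounded). In both cases the groups were apart. All members tested lay between -0.24 and 0.18 in H1975 and between -0.37 and 0.16 in H820, and their medians were -0.03 and -0.05. Among ISG15, IFIT1, MX1, OAS1 and STAT2 the largest change was that of IFIT1 in H1975, from 10.9, 11.6 and 10.9 FPKM to 10.6, 9.43 and 10.1 (-0.15 ± 0.056, adjusted p = 0.293). The IFIT3 call was lost without any C36 library, vehicle replicates 2 or 3 or MinE07 replicates 2 or 3, and 3 members were called without vehicle replicate 1. The OASL call was lost without any C36 or vehicle library or MinE07 replicate 2.

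**Figure D4:**
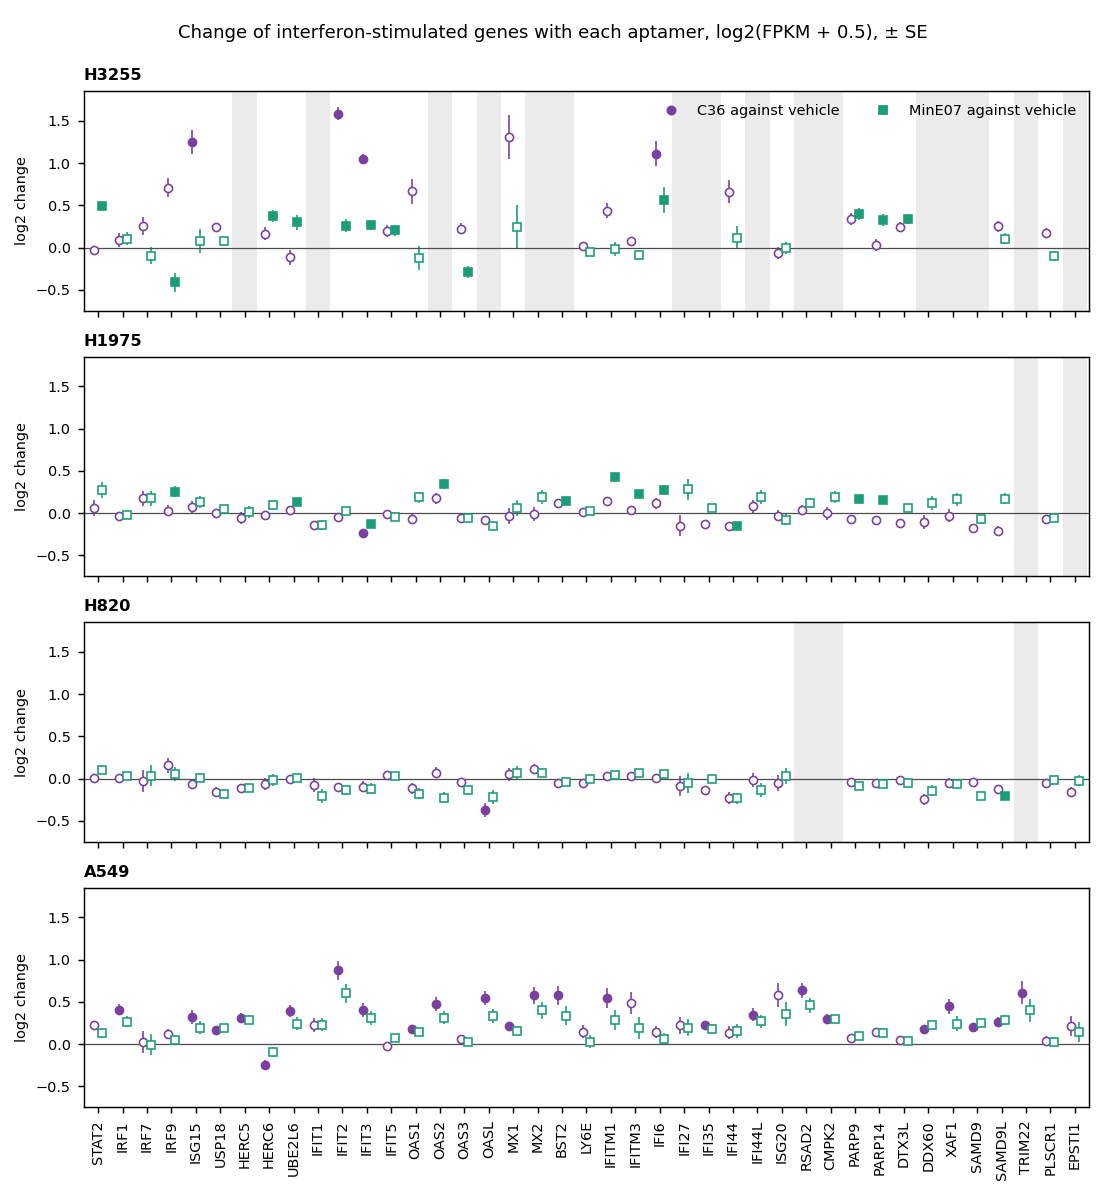
Log2 change (± SE) of each member with C36 (circles) and MinE07 (squares) against vehicle in the 4 lines, on log2(FPKM + 0.5); filled symbols passed an adjusted p of 0.05, and shaded columns are members below the filter. C36 gives the largest changes in H3255 (IFIT2, 1.58), most members lie above 0 with both aptamers in A549, and changes with C36 in H820 lie between -0.37 and 0.16.

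MinE07 was compared with vehicle for the whole effect of the anti-EGFR aptamer. In H3255, 12 of 25 members were called, 10 higher and 2 lower, where 35.8% of all genes were called (20.4% higher, 15.4% lower). The median log2 change of the members was 0.11, against 0.02 for all genes. Those that rose were STAT2, HERC6, UBE2L6, IFIT2, IFIT3, IFIT5, IFI6, PARP9, PARP14 and DTX3L, and those that fell were OAS3 and IRF9.

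All 3 genes of the PARP and DTX3L group rose in H3255. PARP9, which pairs with the ubiquitin ligase DTX3L, gave 4.23, 4.16 and 3.94 FPKM with vehicle and 5.64, 5.71 and 5.37 with MinE07 (log2 change 0.40 ± 0.071, adjusted p = 0.00176). STAT2 gave 9.10, 9.09 and 9.37 FPKM with vehicle and 12.8, 13.7 and 12.8 with MinE07, without overlap (0.49 ± 0.037, adjusted p = 9.4e-06). Its ISGF3 partner IRF9 went the other way, from 3.09, 3.36 and 3.22 FPKM to 1.97, 2.38 and 2.58 (-0.41 ± 0.11, adjusted p = 0.0187). IFI6 rose from 3.27, 3.30 and 4.05 FPKM to 5.39, 5.42 and 5.53 (0.56 ± 0.15, adjusted p = 0.0212). ISG15, by contrast, gave 7.76, 7.25 and 8.13 FPKM with MinE07, overlapping its vehicle values (0.08 ± 0.14, adjusted p = 0.702), and MX1 (0.24 ± 0.26, adjusted p = 0.517) and OAS1 (-0.13 ± 0.14, adjusted p = 0.535) were not called. The calls of IFI6 and IRF9 were lost when some single libraries were left out (MinE07 replicates 1, 2 or 3 or vehicle replicates 1 or 2 for IFI6, and MinE07 replicate 1 or vehicle replicates 2 or 3 for IRF9), and the count fell to 8 without MinE07 replicates 1 or 2 or vehicle replicate 1.

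Among the other pathway genes in H3255, antigen presentation genes rose with MinE07 in 5 of 6 tested (20.4% of all genes rose and 15.4% fell), led by HLA-E (0.27 ± 0.042), TAPBP (0.26 ± 0.044) and HLA-C (0.25 ± 0.071). Of 15 receptor and signalling genes 4 rose, led by IL10RB (0.31 ± 0.078), and IFNGR1 (-0.36 ± 0.040) and SOCS3 (-0.31 ± 0.062) fell, shares near those of all genes. Of 10 sensors and adaptors tested 2 rose, a share near that of all genes, and none fell. MAVS (0.18 ± 0.034), the adaptor of RIG-I and MDA5, was among the 2. No interferon ligand gene passed the filter in H3255.

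In H1975, MinE07 changed 11 of 39 members, 9 higher and 2 lower (21.1% of all genes, 9.98% higher and 11.1% lower). IFITM1, IFITM3 and BST2 among the membrane proteins rose, as did IRF9, OAS2, UBE2L6, IFI6, PARP9 and PARP14. IFIT3 and IFI44 fell. IFITM1 gave 56.0, 51.9 and 52.2 FPKM with vehicle and 70.7, 73.6 and 71.4 with MinE07 (log2 change 0.43 ± 0.036, adjusted p = 0.000181). OAS2 gave 2.00, 1.94 and 2.12 FPKM with vehicle and 2.46, 2.76 and 2.9 with MinE07 (0.35 ± 0.060, adjusted p = 0.004). In both the groups were apart. IFI6 rose from 26.5, 21.8 and 24.1 FPKM to 29.1, 29.4 and 29 (0.27 ± 0.061, adjusted p = 0.0123), and IRF9 from 3.33, 3.26 and 3.79 FPKM to 4.21, 3.95 and 4.49 (0.25 ± 0.066, adjusted p = 0.0242). IRF9 thus rose in H1975 and fell in H3255 with the same aptamer. STAT2 had a log2 change of 0.28 ± 0.094 in H1975 that did not pass (adjusted p = 0.0674), and ISG15 (0.13 ± 0.074), IFIT1 (-0.14 ± 0.056), MX1 (0.06 ± 0.092) and OAS1 (0.19 ± 0.067) did not pass either (adjusted p from 0.0797 to 0.683). The count of 11 fell to 6 without MinE07 replicate 3 or vehicle replicate 2 and to 4 with no filter on low values. The call of IRF9 was lost without MinE07 replicates 1 or 3 or vehicle replicates 1 or 2.

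In H820, SAMD9L, a translation-inhibiting antiviral protein, was the called member with MinE07 (1 of 38, against 2.27% of all genes, 1.53% higher and 0.747% lower). It fell from 4.6, 4.34 and 4.13 FPKM to 3.65, 3.73 and 3.72 without overlap (log2 change -0.21 ± 0.041, adjusted p = 0.0353). That call was lost when any 1 C36 or MinE07 library or vehicle replicates 1 or 2 were left out, and 2 members were called without vehicle replicate 3. STAT2 gave 5.48, 5.74 and 5.72 FPKM with vehicle and 6.20, 6.12 and 6.01 with MinE07, apart but not called (0.10 ± 0.032, adjusted p = 0.131). STAT3 was the called gene of the other lists (0.14 ± 0.026, adjusted p = 0.0294).

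In A549, no member was called with MinE07 by limma (0 of 41, against 0.163% of all genes, 0.0847% higher and 0.0782% lower), although 28 of the 41 had an unadjusted p under 0.05, as did 2037 of the 15346 genes. The members' median log2 change was 0.20, close to the 0.22 with C36. The members with the smallest p were DDX60, an RNA helicase, which gave 10.1, 10.3 and 10.4 FPKM with vehicle and 12.2, 11.9 and 12.1 with MinE07 (0.22 ± 0.035, adjusted p = 0.0531), and HERC5, the main ligase for ISG15, which gave 27.9, 24.2 and 24.8 FPKM with vehicle and 31.5, 31.1 and 31.6 with MinE07 (0.29 ± 0.051, adjusted p = 0.0627). In both genes all MinE07 libraries were above all vehicle libraries. IFIT2 gave 105, 101 and 106 FPKM with MinE07 (0.60 ± 0.11, adjusted p = 0.083), between its vehicle and C36 values. Without vehicle replicate 1, 24 of 41 members were called, all higher, and in the fit of all 36 libraries 16 were called, all higher. The comparisons of C36 and of MinE07 with vehicle share the vehicle libraries, so replicate 1 enters both.

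MinE07 was then set against C36, which asks what the anti-EGFR aptamer did beyond the control aptamer. This comparison shares the C36 libraries with that of C36 and vehicle, so a high C36 value enters both. In H3255, 18 of 25 members were called, 4 higher and 14 lower with MinE07, where 33.6% of all genes were called (15.8% higher, 17.8% lower). IFIT2, MX1 and IFI44 are among the 14 and passed the filter only through the C36 group, with vehicle and MinE07 means under 0.5 FPKM, so the count supports nothing by itself. The median log2 change of the members was -0.17, against 0.00 for all genes.

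Lower in the MinE07 than in the C36 libraries of H3255 were IFIT2, IFIT3, MX1, OAS1, OAS3, ISG15, USP18, IFI6, IFI44, IRF7, IRF9, PLSCR1, IFITM1 and IFITM3. IFIT2, at 1.53, 1.46 and 1.64 FPKM with C36 and 0.336, 0.357 and 0.254 with MinE07, differed by -1.33 ± 0.076 on the log2 scale (adjusted p = 1.5e-06). ISG15, at 22.8, 16.4 and 15.6 FPKM with C36 and 7.76, 7.25 and 8.13 with MinE07, differed by -1.17 ± 0.14 (adjusted p = 0.000531). MX1, at 2.13, 1.36 and 0.630 FPKM with C36 and 0.408, 0.382 and 0.251 with MinE07, differed by -1.07 ± 0.26 (adjusted p = 0.0154). In each of these genes the C36 libraries stood above all others. The MinE07 libraries overlapped vehicle for ISG15, and lay above vehicle for IFIT2 and, by a small margin, MX1. The MX1 call was lost without C36 replicate 2 or MinE07 replicate 3 (adjusted p up to 0.0531).

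IRF9 differed from those genes in that MinE07 lay below vehicle as well. It gave 6.76, 5.21 and 4.95 FPKM with C36 and 1.97, 2.38 and 2.58 with MinE07 (log2 change -1.12 ± 0.11, adjusted p = 9.39e-05), with vehicle between at 3.09, 3.36 and 3.22. The files list a further copy of IRF9, whose change against C36 was -1.14 (adjusted p = 4.09e-05), and reads may be shared between the copies. Against vehicle the change of the copy did not pass (-0.28, adjusted p = 0.0604). OAS3 showed the same order, lower with MinE07 than with vehicle (-0.29 ± 0.070, adjusted p = 0.00964) and than with C36 (-0.51 ± 0.070, adjusted p = 0.000403).

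STAT2, HERC6, UBE2L6 and PARP14 were higher with MinE07 than with either C36 or vehicle in H3255. STAT2 gave 9.23, 8.84 and 8.95 FPKM with C36 against 12.8, 13.7 and 12.8 with MinE07 (0.52 ± 0.037, adjusted p = 7.02e-06). UBE2L6, the conjugating enzyme for ISG15, gave 2.08, 2.47 and 2.5 FPKM with C36 and 3.42, 3.61 and 2.86 with MinE07 (0.41 ± 0.089, adjusted p = 0.00546). The groups were apart in both. The ISGF3 subunits thus moved in opposite directions, with STAT2 higher and IRF9 lower with MinE07 than with either C36 or vehicle. UBE2L6 was also higher than both, while ISG15 and its protease USP18 were lower than with C36 only and were not called against vehicle (USP18 0.08 ± 0.043, adjusted p = 0.203). ISG20, IRF1, SAMD9L and LY6E passed no comparison in H3255. LY6E, the highest member there, gave 178, 182 and 182 FPKM with C36 and 160, 173 and 187 with MinE07.

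**Figure D5:**
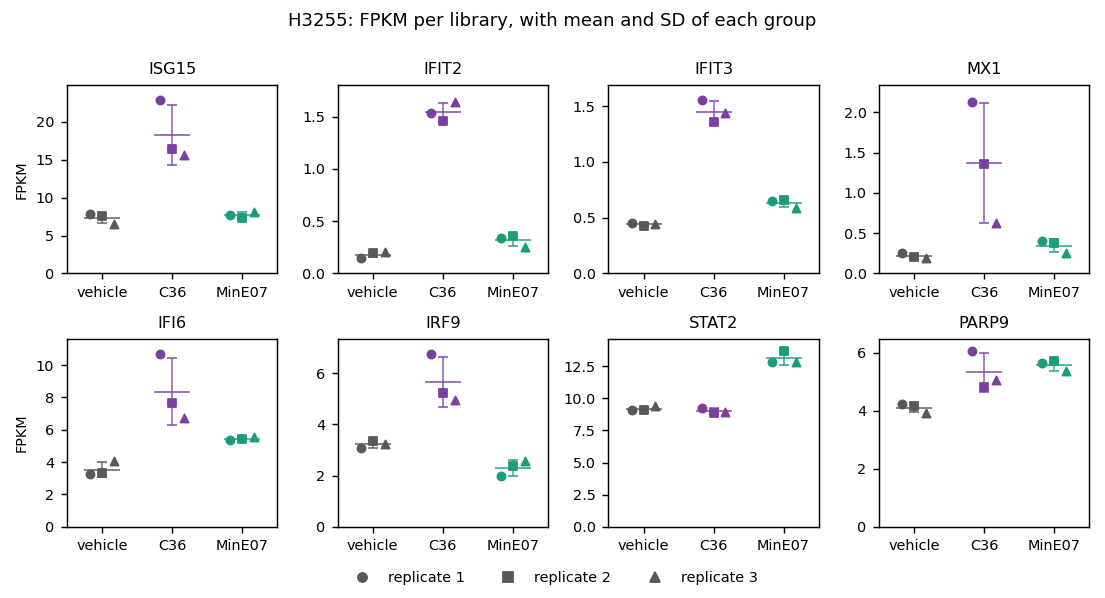
FPKM of 8 members in the 9 H3255 libraries, each panel with its own axis from 0; marker shapes are replicates, and bars with whiskers give the mean and SD of 3 libraries. ISG15, IFIT2, IFIT3 and MX1 are high in the C36 libraries, IRF9 is high with C36 and below vehicle with MinE07, and STAT2 is high with MinE07 alone.

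Promoter matches were then counted by call, to be read beside the 22 of all 33 members with a window that had a match (66.7%). Of the 11 members with a window that were lower in H3255 with MinE07 than with C36, 9 had a match to the element (all but OAS1 and IRF9), and of the 4 that were higher, 1 had (PARP14). Of the 6 not called in that comparison, 3 had a match. MX1 and IFI44 are among the 9 and passed the filter only through the C36 group. The counts of this comparison therefore support nothing by themselves. For MinE07 against vehicle in H3255, 5 of the 9 that rose, 1 of the 2 that fell and 7 of the 10 not called had a match. Of the 17 members with a window that rose with C36 in A549, 10 had a match, and of the 15 that were not called there, 12 had. HERC6, which fell with C36 in A549 and rose with MinE07 in H3255, had none.

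Among other pathway genes, 4 of 10 RNA sensors and adaptors tested in H3255 were lower with MinE07 than with C36 and 2 were higher (17.8% of all genes were lower and 15.8% higher). The lower ones were led by RIGI (-0.30 ± 0.058) and IFIH1 (-0.26 ± 0.063). Of 15 receptor and signalling genes 4 were lower, led by IFNGR1 (-0.36 ± 0.040), a receptor chain for interferon gamma, and SOCS3 (-0.30 ± 0.062), and 3 were higher, led by IL10RB (0.35 ± 0.078), a receptor chain for interferon lambda, shares near those of all genes. Of 6 antigen presentation genes tested 4 were higher, led by TAPBP (0.23 ± 0.044). The epithelial markers summed to 1540 to 1590 FPKM with MinE07 in H3255 and to 1720 to 1760 with C36, and the lung markers to 258 to 277 and to 228 to 235, and the part of this in the results was not tested.

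In H1975, 9 of 39 members were called between MinE07 and C36, all higher with MinE07 (17.8% of all genes were called, 8.23% higher and 9.55% lower). They were OAS1, IFI35, IRF9, SAMD9L, PARP9, PARP14, DTX3L, IFITM1 and IFITM3. SAMD9L gave 0.864, 0.856 and 0.943 FPKM with C36 and 1.27, 1.28 and 1.37 with MinE07, a 1.47-fold difference of means (log2 change 0.38 ± 0.060, adjusted p = 0.00298). IFITM1 gave 58.2, 57.4 and 60.5 FPKM with C36 and 70.7, 73.6 and 71.4 with MinE07 (0.29 ± 0.036, adjusted p = 0.0009). PARP9 gave 10.8, 11.1 and 10.7 FPKM with C36 and 13.0, 12.2 and 13.4 with MinE07 (0.23 ± 0.037, adjusted p = 0.00297). Groups were apart for all 3 genes. OAS1 gave 5.39, 5.55 and 5.24 FPKM with C36 and 5.81, 6.48 and 7.31 with MinE07 (0.25 ± 0.067, adjusted p = 0.0305), a call lost without any C36 library or MinE07 replicates 2 or 3. Of the other lists, IFNGR1 (0.38 ± 0.057), JAK1 (0.23 ± 0.034), HLA-E (0.22 ± 0.037) and TAPBP (0.15 ± 0.044) were among those higher, and none was lower.

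No member was called between MinE07 and C36 by limma in H820 (0 of 38, against 0.019% of all genes, 0.00633% higher and 0.0127% lower) or A549 (0 of 41, against 0% of all genes). In H820, 4 members had an unadjusted p under 0.05, as did 1503 of all genes, and in A549 4 members and 1570 genes did. In H820 the smallest p were those of OAS2 (3.08, 2.62 and 2.98 FPKM with C36 and 2.21, 2.49 and 2.12 with MinE07, adjusted p = 0.272) and SAMD9 (5.03, 4.63 and 5.07 against 4.43, 4.30 and 4.23, adjusted p = 0.343). In A549 they were those of HERC6 (7.11, 6.93 and 6.62 FPKM with C36 and 7.61, 7.60 and 7.95 with MinE07, adjusted p = 0.422) and OASL (81.4, 86.7 and 90.1 against 74.3, 71.8 and 76.6, adjusted p = 0.434). In each of these 4 genes the groups were apart while the change missed the threshold. The members' median log2 change was 0.00 in H820 and -0.07 in A549.

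Whether the responses differed between lines was tested directly, by interaction terms in the fit of all 36 libraries. All 41 members were tested there, and 19207 genes in all. That fit gives a gene the same spread in all lines, so p-values can be too small where a line varies more. For MX1 the SE of the term below was smaller than that of its H3255 change in the fit of that line alone. The change with C36 against vehicle was larger in A549 than in H1975 for 15 members and smaller for none (3.2% of genes differed, 2.29% larger). With a pseudocount of 0.1 the count of 15 became 9. The change was larger in A549 than in H820 for 19 and smaller for none (5.26% of genes, 3.18% larger). TRIM22 is among the 15 and the 19 and was below the filter within H1975 and H820. RSAD2 is among the 19 and was below it within H820. There they entered this fit only through other lines, so their terms, and counts that hold them, support nothing by themselves. IFIT2 differed by 0.92 ± 0.11 between A549 and H1975 (adjusted p = 8.55e-06) and by 0.97 ± 0.11 between A549 and H820 (adjusted p = 2.25e-06). Against H3255 the members divided, and the change was higher in H3255 for 11 (1.34% of genes), among them IFIT1, IFIT2, IFIT3, MX1, OAS1, OASL, ISG15, IFI6 and IRF9, and higher in A549 for 5 (1.59%), ISG20, BST2, TRIM22, UBE2L6 and IFITM3. For MX1 the change was 0.22 in A549 and 1.31 in H3255, a difference of -1.09 ± 0.23 (adjusted p = 0.00692). The MX1 change in H3255 was not called in the fit of that line. IFIT2, IFIT3, MX1 and IFI44 are among the 11 and passed the filter within H3255 only through groups other than vehicle. Their terms support nothing by themselves. Of the members named against H3255, IFIT1, OASL, BST2 and TRIM22 were below the filter within H3255. They entered this fit only through other lines, so their terms, and counts that hold them, support nothing by themselves. On this scale, log2(FPKM + 0.5), the change of a gene near 0 FPKM is understated, as for those members in H3255.

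The change with MinE07 against C36 was lower in H3255 than in H1975 for 26 members and higher for 2 (7.24% and 6.14% of genes), lower than in H820 for 17 and higher for 3 (8.67% and 6.8%), and lower than in A549 for 17 and higher for 3 (10.9% and 10.1%). IFIT1, IFIT2, IFIT3, MX1, OAS1, OAS3, OASL, ISG15, IFI6, IFI44, IFI44L, RSAD2, DDX60, IRF9 and PLSCR1 were lower against each of the other lines, and STAT2 and UBE2L6 were higher against each. Of the lower ones, IFIT1, OASL, IFI44L, RSAD2 and DDX60 were below the filter within H3255. So were MX2, OAS2, IFI27, HERC5, CMPK2, XAF1 and SAMD9 among the 26 lower than in H1975. HERC5 is also among the 17 lower than in H820, and SAMD9 among the 17 lower than in A549. All of these entered this fit only through other lines, so their terms, and counts that hold them, support nothing by themselves. IFIT2, MX1 and IFI44 passed the filter within H3255 only through the C36 group, so the same holds for their terms. IRF9, with a change of -1.12 in H3255 and 0.22 in H1975, differed by -1.35 ± 0.13 (adjusted p = 1.13e-08). STAT2, at 0.52 in H3255 and 0.21 in H1975, differed by 0.30 ± 0.092 (adjusted p = 0.0251).

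The files list a further copy for 4 members, IFI27, IRF7, IRF9 and LY6E, and reads may be shared between a member and its copy. The copy of IRF7 rose with C36 in A549 (0.27, adjusted p = 0.0087) while IRF7 itself did not pass (0.02, adjusted p = 0.942). In H3255 the IRF9 copy passed for C36 against vehicle (0.86, adjusted p = 0.0211) where IRF9 had an adjusted p of 0.0542, and it did not pass for MinE07 against vehicle (-0.28, adjusted p = 0.0604) where IRF9 did. IRF7 and IRF9 are therefore uncertain where these differ.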

How the data were processed

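RNA from 4 cell lines under 3 treatments was sequenced after poly-A selection, in 36 libraries. The authors deposited 1 table of FPKM per library; HISAT2, Cuffdiff and GRCh38.p12 (hg38) are named, without versions, in the submitters' processing notes, while the sources used here give neither the annotation nor the strand setting. FPKM is scaled to library size and transcript length, so it holds no counts, and depth was estimated only relative to the median library from the spacing of low values. Files were joined by gene identifier, and 1874 entries without a name and 31 with a repeated name per file were left out (at most 0.005% of summed FPKM).

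Values were tested as log2(FPKM + 0.5) with limma 3.58.1 (R 4.3.3, statmod 1.5.0; trend and robust settings), in 1 fit per line over its 9 libraries for treatments and 1 fit of all 36 libraries for vehicle levels and interaction terms. Genes entered at a mean of 0.5 FPKM or more, p-values were two-sided and Benjamini-Hochberg adjusted over all genes tested, and calls are adjusted p under 0.05. Fold changes on this scale understate the change of low genes, and folds between means use FPKM directly. The tests were checked on simulated data. The series record calls the replicates biologically independent experiments; p-values measure the spread between these libraries. Pseudocounts of 0.1 and 1, a filter at 1 and none, rescaling by medians of ratios, a replicate block, the fit of all 36 libraries and leaving out each library were tried.

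The members and gene lists were chosen with earlier results of these data known. Some genes of the other lists are not reported here. The rule for named members took the 3 highest members in vehicle per line, up to 4 called members with the largest change per comparison (or the 2 with the smallest p), up to 3 per interaction, ISG15, IFIT1, MX1, OAS1 and STAT2, and up to 3 called genes of each other list. Values per library are printed for many of the members, and mostly the change alone for genes of the other lists. UBE2L6, OAS3, OASL and IFIT1 in H3255 and HERC6 and HERC5 with C36 in A549 were chosen after their values were seen. Python 3.11.15, pandas 2.3.3, numpy 2.4.6 and matplotlib 3.10.9 were used for the remaining steps.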

Additional observations from a re-analysis of the deposited data

Results flagged for a closer look

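The change of these members differed between 2 lines by an interaction term of the fit of all 36 libraries (limma). Up to 3 with the largest difference are given for each pair of lines. That fit gives a gene the same spread in all lines, so p-values can be too small where a line varies more. For C36 against vehicle, A549 minus H3255, the log2 difference was -1.09 for MX1 (adjusted p = 0.00692). MX1 passed the filter within H3255 only through the C36 group, so its term supports nothing by itself. The difference was -0.96 for OASL (adjusted p = 2.18e-06), which was below the filter within H3255, and -0.96 for IFI6 (-0.965, adjusted p = 0.000104). For A549 minus H1975 it was 0.92 for IFIT2 (adjusted p = 8.55e-06), 0.65 for IFIT3 (0.645, adjusted p = 7.84e-05) and 0.68 for TRIM22 (adjusted p = 0.00149), which was below the filter within H1975. For A549 minus H820 it was 0.97 for IFIT2 (adjusted p = 2.25e-06), 0.92 for OASL (adjusted p = 2.7e-06) and 0.67 for TRIM22 (adjusted p = 0.001), below the filter within H820.

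For MinE07 against C36, H3255 minus H1975, the log2 difference was -1.39 for IFIT2 (adjusted p = 2.44e-10), -1.43 for OASL (adjusted p = 6.65e-11) and -1.35 for IRF9 (adjusted p = 1.13e-08). For H3255 minus H820 it was -1.29 for IFIT2 (adjusted p = 1.03e-09), -1.66 for OASL (adjusted p = 3.82e-12) and -1.24 for ISG15 (-1.235, adjusted p = 1.96e-07). For H3255 minus A549 it was -1.06 for IFIT2 (adjusted p = 3.42e-08), -1.29 for OASL (adjusted p = 4.12e-10) and -1.05 for IRF9 (adjusted p = 6.91e-07). OASL was below the filter within H3255 in all 3 pairs. IFIT2 passed the filter there only through the C36 group, so its terms support nothing by themselves.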

How the results depend on the processing

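Of the 51 changes of named members none reversed direction in 1279 values under the alternatives, 91 lost the call and 4 gained one. Counts of called members moved by over 1.5 times as follows, and except where stated the cause was not tested. With a pseudocount of 0.1, C36 against vehicle gave 0 in H820 (from 1), and the term A549 minus H1975 for C36 gave 9 (from 15). With a pseudocount of 1, C36 against vehicle gave 0 in H1975 (from 1). With a filter at 1 FPKM, MinE07 against vehicle gave 2 in H820 (from 1). With no filter, C36 against vehicle gave 0 in H1975, 0 in H820 and 1 in A549 (from 24), and MinE07 against vehicle gave 4 in H1975 (from 11) and 0 in H820. Rescaling by medians of ratios gave 1 for MinE07 against vehicle in A549 (from 0). In the fit of all 36 libraries, which tests all 41 members and pools the spread, C36 against vehicle gave 23 in H3255 (from 4) and 3 in H820, MinE07 against C36 gave 30 in H3255 (from 18), and MinE07 against vehicle gave 3 in H820 and 16 in A549 (from 0).

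Replicate numbers did not pair the samples: deviations of same-numbered libraries correlated at -0.153 to 0.236. With the replicate number as a block, C36 against vehicle gave 0 in H1975, 0 in H820 and 8 in A549, and MinE07 against vehicle gave 0 in H820.

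Leaving out each library in turn, the counts ranged from 2 to 5, 8 to 11 and 15 to 17 in H3255 for C36 against vehicle, MinE07 against vehicle and MinE07 against C36. In the same order they ranged from 0 to 3, 6 to 12 and 6 to 12 in H1975, from 0 to 1, 0 to 2 and 0 to 0 in H820, and from 1 to 31, 0 to 24 and 0 to 0 in A549. For C36 terms they ranged from 11 to 17, 11 to 18 and 16 to 23 (A549 minus H3255, H1975 and H820), and for MinE07 against C36 from 24 to 28, 19 to 22 and 18 to 22 (H3255 minus H1975, H820 and A549). Between vehicle groups they lay between 34 and 41. Without counts, the precision of values under 0.5 FPKM is unknown.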
